A study of Homo sapiens with 8 samples.

Results

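The genes described here are 10 components of the inflammasome and of pyroptotic cell death: the sensors NLRP1, NLRP3 and AIM2, the adaptor PYCARD (ASC), the inflammatory caspases CASP1, CASP4 and CASP5, and the gasdermins GSDMC, GSDMD and GSDME. They are 10 of 56632 genes in the count table, of which 29419 had a count in at least 1 library. PYCARD was selected on its measured counts, which were high in M1 and 0 in M4, and the other 9 genes were listed with it as parts of the same pathway. The levels of PYCARD in M4 are therefore given as a description with no test, and nothing is read from a call of a member in M4 against M1 or from a call of PYCARD in any comparison with M4.

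The study followed a breast cancer progression series of isogenic lines, grown as 3D acini in Matrigel for 8 days with 2% horse serum, and sequenced poly A+ RNA from 2 biological replicates of each of 4 lines. M1 is MCF10A, an immortalized human mammary epithelial line that does not form tumors. M2 (MCF10AT1k.cl2) is a clone of MCF10A that carries activated T24-HRAS and was selected by xenografting. M3 (MCF10Ca1h) and M4 (MCF10CA1a.cl1, a clone) came from carcinomas that arose in xenografts of M2 cells. M1 and M2 were grown with EGF at 10 ng/ml, while M3 and M4 were grown without EGF, so the line and the medium cannot be told apart in any comparison of M3 or M4 with M1 or M2. Each line is represented by 2 cultures of 1 cell line, and p-values measure the spread between those cultures.

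An inflammasome assembles in the cytosol when a sensor protein detects a danger signal such as foreign DNA, bacterial products or loss of membrane integrity. Several sensors recruit the adaptor ASC, encoded by PYCARD, through a pyrin domain, and ASC in turn recruits procaspase-1 through a caspase recruitment domain (CARD). Active caspase-1 matures the cytokines interleukin-1β and interleukin-18 and cuts gasdermin D, whose free end forms pores in the plasma membrane and leads to a lytic death called pyroptosis. Epithelial cells express parts of this pathway as well as the myeloid cells in which it was worked out.

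The upstream sequences of 3 members are shown because these genes had different patterns among the lines: PYCARD was at 0 in M4 only, CASP4 was measured in every line and was lowest in M3, and GSDME was measured in every line, at a similar level in most libraries. Each sequence is the 250 bases before the gene start of the RefSeq promoter table (GRCh38.p14), 5′ to 3′ on the strand of the gene, and the capitals mark each CG dinucleotide, the position at which vertebrate DNA can be methylated. CG reads the same on both strands. DNA methylation was not measured in these samples.
PYCARD: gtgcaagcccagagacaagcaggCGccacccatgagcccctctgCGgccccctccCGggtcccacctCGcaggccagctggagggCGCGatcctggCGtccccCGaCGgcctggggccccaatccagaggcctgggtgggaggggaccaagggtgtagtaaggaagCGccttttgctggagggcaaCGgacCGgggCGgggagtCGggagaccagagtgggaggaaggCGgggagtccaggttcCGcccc
CASP4: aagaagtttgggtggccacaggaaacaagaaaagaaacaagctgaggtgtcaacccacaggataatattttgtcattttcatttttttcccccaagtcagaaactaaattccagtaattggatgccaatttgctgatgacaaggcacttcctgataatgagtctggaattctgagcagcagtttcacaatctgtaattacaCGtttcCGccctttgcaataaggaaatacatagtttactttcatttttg
GSDME: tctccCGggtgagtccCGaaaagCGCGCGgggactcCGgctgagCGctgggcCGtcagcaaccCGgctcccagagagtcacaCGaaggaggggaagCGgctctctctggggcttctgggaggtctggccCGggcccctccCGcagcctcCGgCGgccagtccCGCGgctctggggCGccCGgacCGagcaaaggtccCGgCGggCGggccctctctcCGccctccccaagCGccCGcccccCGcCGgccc
The PYCARD sequence (chr16:31202761-31203010, minus strand) holds 16 CG dinucleotides, and 41.0% of 35116 promoters in that table hold at least as many in the same window. The CASP4 sequence (chr11:104968575-104968824, minus strand) holds 2, a number that 85.3% of promoters reach. The GSDME sequence (chr7:24757465-24757714, minus strand) holds 28, a number that 15.9% of promoters reach, and the median promoter holds 11. PYCARD thus held an intermediate number of CG among these 3 genes, and a link of CG number to its counts was not tested. Of the 10 members, 6 have an entry in the table, and CASP1, NLRP1, GSDMC and GSDMD do not.

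Before the members are described, the libraries need to be characterized. Total counts ran from 69669945 to 107350288 per library. The M2 replicates were closer to each other than those of any other line: Spearman's rho across 13495 genes was 0.998, and the chi-square of their counts per degree of freedom was 6.95, against 136 to 361 in the other lines, which is still more than sampling noise. The study's own expression listing exchanges 2 libraries: its column for M1 replicate 2 matched the library labelled M2 replicate 1 (r = 0.960 across 268 genes), and its column for M2 replicate 1 matched the library labelled M1 replicate 2 (r = 0.980). The sample labels were followed throughout, and results that touch M1 or M2 are given with the exchanged assignment where it matters. HRAS ran from 139 to 160 CPM (counts scaled to a common library size by TMM) in M1 and M2 and from 269 to 352 CPM in M3 and M4, with M1 and M2 overlapping. All 7 basal markers and 7 of 8 luminal epithelial markers had at least 100 counts in a library, ELF5 being the exception. Among 10 leukocyte markers, 5 stayed under 10 counts everywhere, PTPRC, CD3E, SPI1 and TYROBP among them. Of 7 fibroblast markers, COL1A2, COL3A1 and LUM also stayed under 10 counts, whereas COL1A1 had 474 to 2113 counts in every library and DCN reached 6130 in M2.

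All 10 members were found in the table, and 8 of 10 passed the filter on low counts. CASP5 and AIM2 did not pass, and NLRP3 passed only through its counts in M4. A gene was called when edgeR's quasi-likelihood test gave an adjusted p under 0.05 over 18431 genes and the absolute log2 fold change was above 1. In M2 against M1, 0 members were called by edgeR where 3.37% of all genes tested were; 0 members had an unadjusted p under 0.05, and DESeq2 also called 0. In M3 against M1, 1 member (PYCARD) was called, with 13.5% of all genes called. In M4 against M1, 20.7% of all genes were called, and the 1 member called was PYCARD, which had been selected on this difference. In M3 against M2, 0 members were called by edgeR beside 4.15% of all genes; 3 members had an unadjusted p under 0.05, and DESeq2 called 2. In M4 against M2, 2 members were called beside 13.9% of all genes, CASP1 and, by its selection, PYCARD. In M4 against M3, 2 members were called beside 10.3% of all genes, CASP4 and, by its selection, PYCARD. These comparisons share libraries and are not independent of each other. With M1 replicate 2 and M2 replicate 1 exchanged, the number of members called in M3 against M1 was 0, and in M4 against M2 and in M4 against M3 it was 2.

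**Figure D1:**
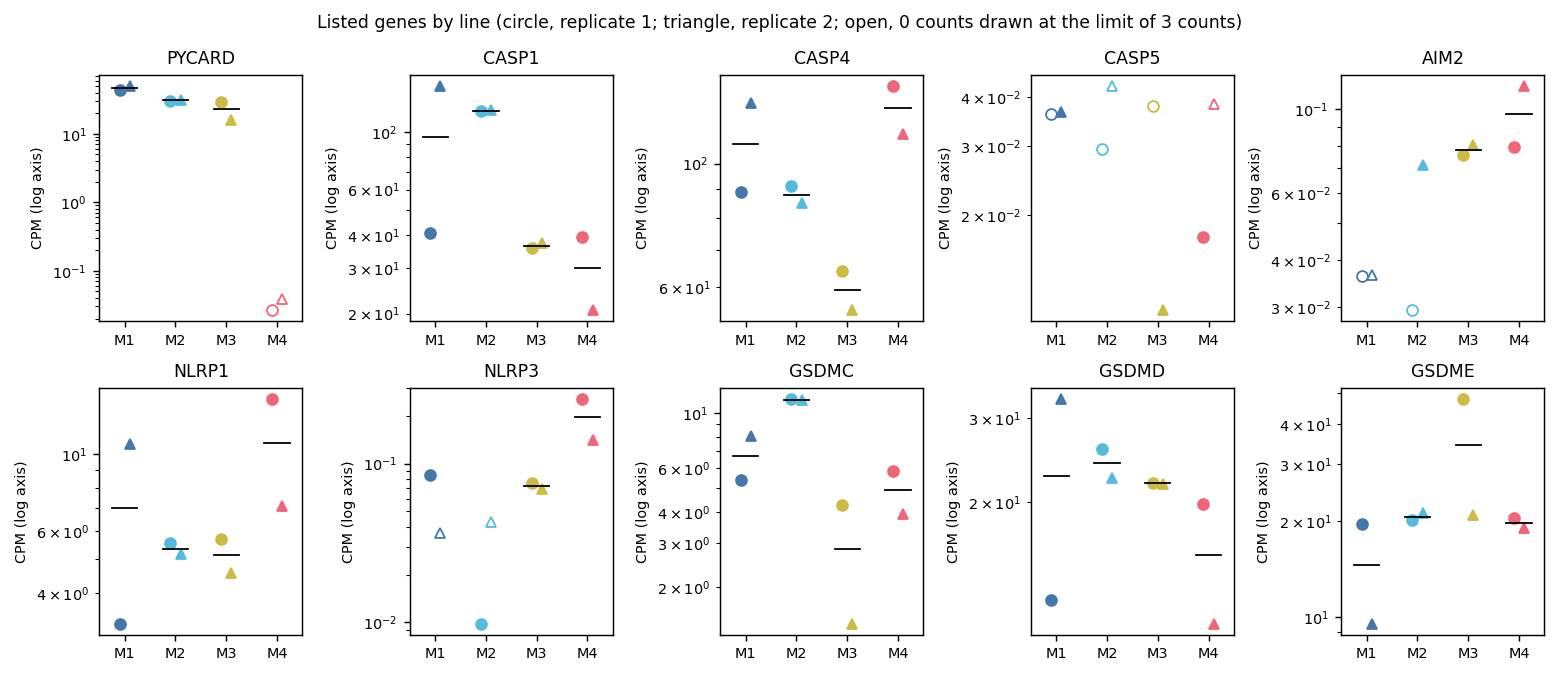
CPM of each of the 10 genes (log axis, a separate range in each panel) in the 2 replicates of M1, M2, M3 and M4; the bar is the mean of the replicates, and open symbols mark libraries at 0 counts, drawn at the limit of 3 counts. PYCARD lies between 15.9 and 50.5 CPM in M1 to M3 and is open in both M4 libraries, while CASP5, AIM2 and NLRP3 stay under 0.26 CPM in every library.

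None of the sensors was called by edgeR in the comparisons read here. NLRP1 (ENSG00000091592, chr17:5402735-5522744, minus strand, GRCh37 as for all gene spans given) encodes a sensor of microbial proteases and double-stranded RNA that is prominent in human epithelia. It measured 3.26 and 10.7 CPM in the M1 replicates, 5.54 and 5.17 CPM in M2, 5.70 and 4.55 CPM in M3, and 14.4 and 7.09 CPM in M4. The M1 replicates alone differed 3.28-fold, a ratio reached by 9.43% of the genes tested in that line, so their range covered that of M2 and M3 and overlapped that of M4. Both M4 libraries lay above all M2 and M3 libraries, yet the log2 fold change was 1.07 (SE 0.54, adjusted p = 0.211) in M4 against M3 and 1.00 (SE 0.54, adjusted p = 0.220) in M4 against M2.

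NLRP3 (ENSG00000162711, chr1:247579458-247612410, plus strand), the sensor of potassium efflux in myeloid cells, was close to the limit of detection. M1 had 7 and 0 counts, M2 had 1 and 0, M3 had 6 and 6, and M4 had 29 and 11. Both M4 libraries were above the other 6, at 0.256 and 0.141 CPM. As NLRP3 entered the test only through these M4 counts, no test of M4 is given for it. AIM2 (ENSG00000163568, chr1:159031389-159157633, minus strand), which binds double-stranded DNA in the cytosol, had 0 counts in both M1 libraries, 0 and 5 counts (M2), 6 and 7 (M3), and 9 and 9 (M4). The M4 libraries held the most AIM2 counts. With at most 9 counts the gene did not pass the filter, so this difference was not tested in the main fit.

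PYCARD (ENSG00000103490, chr16:31212807-31214771, minus strand) encodes ASC, the adaptor on which pyrin-domain sensors depend to reach caspase-1. It had 3674 and 4136 counts (M1), 3105 and 2183 (M2), 2342 and 1382 (M3) and 0 and 0 (M4). On the CPM scale these were 44.4 and 50.5 in M1, 30.5 and 31.0 in M2, and 29.6 and 15.9 in M3. The M1 libraries lay above all M2 and M3 libraries, M2 lay above M3, and no M4 library held any count. The 0 in M4 allowed at most 0.0264 CPM in replicate 1 and 0.0384 CPM in replicate 2 (a limit of 3 counts per library, which covers counting error only). Against the mean of these limits, PYCARD was at least 1462-fold lower in M4 than in M1, at least 948-fold lower than in M2 and at least 701-fold lower than in M3. In bulk RNA such as this, fewer expressing cells and less RNA per cell cannot be told apart; for M4 the count was 0 in the whole culture.

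Few other genes had this pattern. Of 18431 genes tested, 185 were at 0 in both M4 libraries. Among the 7528 genes with at least 1000 counts in every M1, M2 and M3 library, PYCARD was the 1 gene at 0 in both M4 libraries. With the limit lowered to 100 counts, 1 more gene joined it, the long noncoding RNA LINC01806, which had 190 to 609 counts in M1, M2 and M3. As PYCARD was selected on this difference, these counts describe it and test nothing.

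Between the lines that expressed PYCARD, which its selection did not use for M2 and M3, the levels were ordered M1, M2, M3. PYCARD fell by 1.06 on the log2 scale in M3 against M1 (SE 0.28, adjusted p = 0.0409). This call was lost without M1 replicate 1 (adjusted p = 0.0798), without M1 replicate 2 (0.121) and without M3 replicate 2 (0.0572), in a fit of M1 and M3 alone (0.0881), and with M1 replicate 2 and M2 replicate 1 exchanged (log2 fold change -0.72, adjusted p = 0.387). Neighbours in the order were not separated by the test, with a log2 fold change of -0.62 (SE 0.28, adjusted p = 0.242) in M2 against M1 and of -0.44 (SE 0.28, adjusted p = 0.421) in M3 against M2. The M1 libraries entered the choice of PYCARD, so the M3 against M1 value is not free of it.

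The genes around PYCARD were examined to see whether M4 had reads from the same stretch of chromosome 16. Of 17 other genes of the table within 100 kb, 10 had at least 10 counts in a library. KAT8, a histone acetyltransferase gene, measured 26.4, 19.5, 23.0 and 22.1 CPM on average in M1, M2, M3 and M4, and was not called in M4 against M1 (log2 fold change -0.25, SE 0.19, adjusted p = 0.343).

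BCKDK, a mitochondrial kinase gene, also had reads in every library, between 3635 and 6906 counts, and was not called in M4 against M1 (log2 fold change 0.28, SE 0.22, adjusted p = 0.360). PRSS8, the gene of the epithelial serine protease prostasin, rose in M4 against M3 (log2 fold change 2.02, SE 0.43, adjusted p = 0.0210), from 2450 and 1097 counts to 11646 and 5745; the adjusted p was 0.105 with the exchanged assignment, 0.106 without M4 replicate 1 and 0.0515 without M4 replicate 2. PYDC1, a gene for a small pyrin-domain protein that binds ASC, had 13 and 14 counts in M1 and 0 in the other 6 libraries. Thus KAT8, BCKDK and PRSS8 all had reads in M4, where PYCARD had none. Their middles lie on the same side of PYCARD, at -79.5, -93.0 and -68.9 kb. On the other side, ITGAM (94.0 kb) had 106 counts in each M4 library. PYDC1 (14.1 kb) was at 0 in M2 and M3 as well as in M4.

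**Figure D2:**
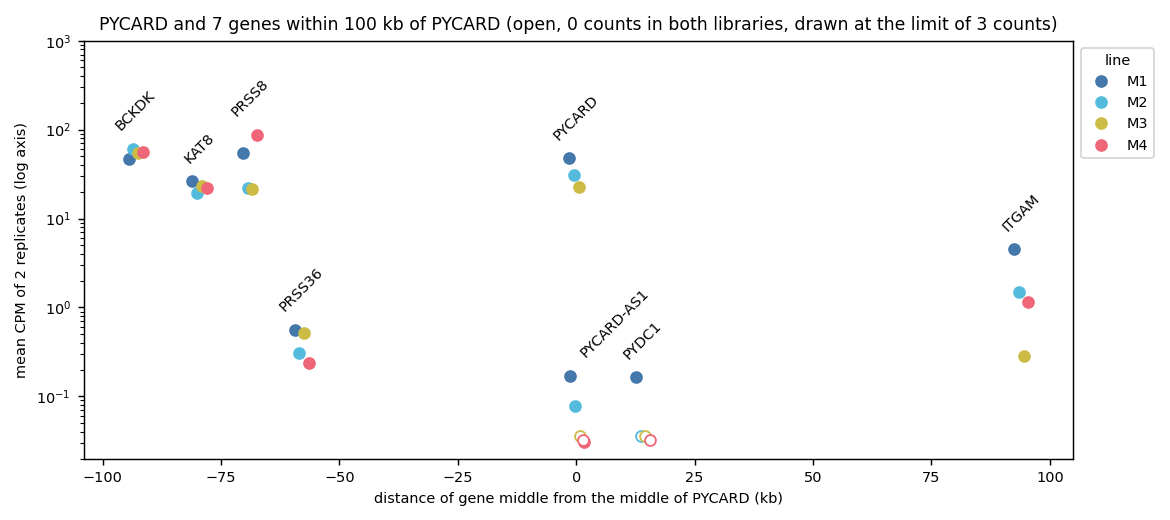
Mean CPM of the 2 replicates of each line (log axis) for PYCARD and for 7 genes within 100 kb that had at least 10 counts in a library, against the distance of each gene's middle from that of PYCARD in kb, with the points of a gene shifted sideways by line; open symbols mark lines at 0 counts in both libraries, drawn at the limit of 3 counts. KAT8, BCKDK and PRSS8 lie between 19.5 and 88.1 CPM in every line, whereas PYCARD is open in M4 alone.

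PYCARD-AS1, an antisense gene on the plus strand, overlaps the PYCARD span by 1566 bp, and 54.6% of the 50-base stretches of PYCARD transcripts are complementary to it. The use of strand in the counting is not given in the sources used here, so reads from these complementary stretches cannot be told apart. PYCARD-AS1 had 0 and 28 counts (M1), 0 and 11 (M2), 0 and 0 (M3) and 7 and 0 (M4). In M4 replicate 1, therefore, 7 counts were assigned to the antisense gene and 0 to PYCARD.

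Outside the members, the tested genes whose log2 CPM followed PYCARD most closely over the 8 libraries were TFPI (Pearson r = 0.997), LINC01806 (0.997), LSP1P4 (0.996), NDUFA3 (0.994) and ZBTB47 (0.994). The 8 points are 4 lines in 2 replicates, so the coefficient mainly records that each gene was lowest in M4. TFPI, which encodes an inhibitor of blood coagulation, had 632 to 1361 counts in M1, M2 and M3 and 12 and 5 in M4. NDUFA3, a subunit gene of mitochondrial complex I, kept 1932 and 1163 counts in M4, against 3349 to 5175 elsewhere.

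CASP1, CASP4 and CASP5 lie next to each other on chromosome 11, together with the CARD-only genes CARD16 and CARD18. CASP1 (ENSG00000137752, chr11:104896124-104905977, minus strand) encodes the protease that the ASC scaffold activates. It measured 40.7 and 150 CPM in M1, 120 and 121 CPM in M2, 35.6 and 37.4 CPM in M3, and 39.4 and 20.6 CPM in M4. The M2 libraries stood above all M3 and M4 libraries, whereas the M1 libraries differed 3.69-fold, with replicate 1 near the M3 level and replicate 2 above M2.

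CASP1 fell by 2.00 on the log2 scale in M4 against M2 (SE 0.57, adjusted p = 0.0438). With M1 replicate 2 and M2 replicate 1 exchanged it fell by 2.18 (adjusted p = 0.0346). The call was lost when any M2 or M4 library was left out, with adjusted p values from 0.0893 without M4 replicate 1 to 0.203 without M4 replicate 2. In M3 against M2 the log2 fold change was -1.72 (SE 0.56, adjusted p = 0.129), although the groups did not overlap. In M3 against M1 it was -1.39 (SE 0.56, adjusted p = 0.119), and the value depended on which M1 library was kept: it was -2.04 (adjusted p = 0.0106) without M1 replicate 1 and -0.15 (adjusted p = 0.791) without M1 replicate 2. DESeq2, unlike edgeR, called CASP1 in M3 against M2 (adjusted p = 0.00806) and in M3 against M1 (adjusted p = 0.0232). M3 and M4, neighbours in the order of levels, overlapped.

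CARD16, a CARD-only gene beside CASP1 whose product binds procaspase-1, shares 203 of its 50-base stretches with CASP1, which is 4.48% of those of CASP1 and 12.2% of those of CARD16; to this extent their counts are uncertain. CARD16 had 392 and 1515 counts (M1), 2043 and 1361 (M2), 251 and 340 (M3) and 1068 and 256 (M4). As for CASP1, the M1 replicates lay far apart and the mean CPM was highest in M2. The highest single library differed, being M2 replicate 1 for CARD16 (20.1 CPM) and M1 replicate 2 for CASP1 (150 CPM).

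CASP4 (ENSG00000196954, chr11:104813593-104840093, minus strand) encodes a caspase that binds bacterial lipopolysaccharide in the cytosol and cuts gasdermin D without ASC. It measured 89.0 and 128 CPM in M1, 91.1 and 84.9 CPM in M2, 64.1 and 54.6 CPM in M3, and 138 and 113 CPM in M4. The M3 libraries lay below all others, and the M4 libraries lay above those of M2 and M3 and overlapped those of M1. CASP4 rose in M4 against M3 by 1.08 on the log2 scale (SE 0.20, adjusted p = 0.0133), and with the exchanged assignment by 1.08 (adjusted p = 0.0450). Without M3 replicate 2 the adjusted p was 0.0516, and without M4 replicate 1 it was 0.0848.

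In M3 against M1, CASP4 passed the adjusted p (0.0211) but not the fold limit, with a log2 fold change of -0.87 (SE 0.20); without M1 replicate 1 the value was -1.11 (adjusted p = 0.0107), and with the exchanged assignment it was -0.60 (adjusted p = 0.237). In M3 against M2 the log2 fold change was -0.57 (SE 0.20, adjusted p = 0.147), and in M4 against M2 it was 0.51 (SE 0.20, adjusted p = 0.104). CASP5 (ENSG00000137757, chr11:104864962-104893895, minus strand), whose product also binds lipopolysaccharide, had 0 and 3 counts (M1), 0 and 0 (M2), 0 and 1 (M3) and 2 and 0 (M4). At most 3 counts in libraries of this depth leave CASP5 at the limit of detection in every line.

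The gasdermins GSDMD, GSDMC and GSDME had counts in every library, and none of them was called by edgeR in the comparisons read here. GSDMD (ENSG00000104518), the pore-forming substrate of caspase-1 and caspase-4, measured 12.5 and 32.8 CPM in M1, 25.8 and 22.5 CPM in M2, 21.9 and 21.9 CPM in M3, and 19.9 and 11.2 CPM in M4. The M1 replicates, 2.62-fold apart, spanned all other libraries except M4 replicate 2. In M4 against M2 the log2 fold change was -0.63 (SE 0.43, adjusted p = 0.324), and both M4 libraries lay below those of M2 and M3.

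GSDMC (ENSG00000147697), a gasdermin that caspase-8 can cut, measured 5.39 and 8.09 CPM in M1, 11.3 and 11.2 CPM in M2, 4.26 and 1.44 CPM in M3, and 5.84 and 3.95 CPM in M4. The M2 libraries were the highest and lay apart from all others, and the M3 libraries overlapped those of M4. In M3 against M2 the log2 fold change was -1.99 (SE 0.50, adjusted p = 0.0618), in M3 against M1 it was -1.25 (SE 0.49, adjusted p = 0.107), and in M4 against M2 it was -1.20 (SE 0.49, adjusted p = 0.113). DESeq2 called GSDMC in each of these 3 comparisons, with adjusted p of 0.000745, 0.0349 and 0.0475. The M3 replicates differed 2.97-fold, and the values depended on which was kept. Without M3 replicate 1 the values were -2.97 (adjusted p = 0.0227) in M3 against M2 and -2.22 (adjusted p = 0.0179) in M3 against M1, and without M3 replicate 2 they were -1.40 (adjusted p = 0.106) and -0.66 (adjusted p = 0.276). In M4 against M3 the value was 0.78 (SE 0.49, adjusted p = 0.296), and it was 1.76 (adjusted p = 0.0460) without M3 replicate 1 and 0.20 (adjusted p = 0.748) without M3 replicate 2.

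GSDME (ENSG00000105928, chr7:24737974-24797559, minus strand) encodes the gasdermin that the apoptotic caspase-3 cuts. It measured 19.6 and 9.58 CPM in M1, 20.2 and 21.1 CPM in M2, 48.0 and 20.9 CPM in M3, and 20.5 and 19.1 CPM in M4. Except for M1 replicate 2 and M3 replicate 1, all libraries lay between 19.1 and 21.1 CPM. The log2 fold change in M3 against M1 was 1.24 (SE 0.43, adjusted p = 0.0760), and in M4 against M3 it was -0.80 (SE 0.42, adjusted p = 0.226). Without M1 replicate 1 the value in M3 against M1 was 1.84 (adjusted p = 0.0413), without M3 replicate 2 it was 1.72 (adjusted p = 0.0304), and without M3 replicate 1 it was 0.53 (adjusted p = 0.375). DESeq2 called GSDME in M3 against M1 (log2 fold change 1.22, adjusted p = 0.0174).

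**Figure D3:**
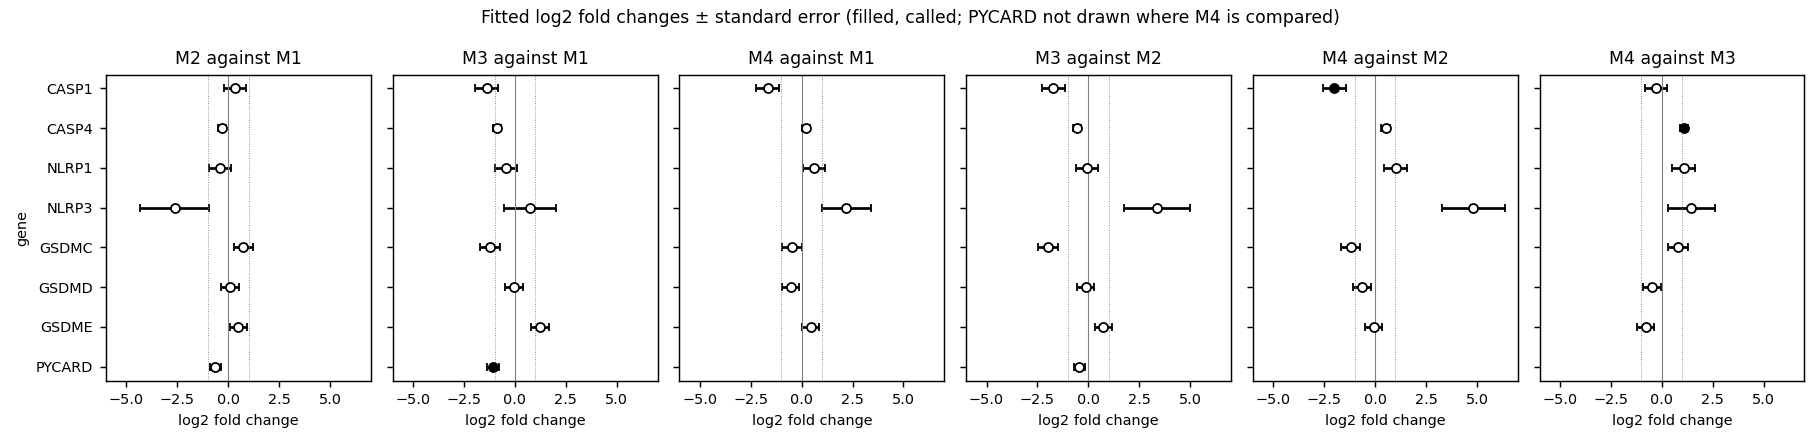
Fitted log2 fold changes with standard errors of the 8 tested members in each of the 6 comparisons; filled points were called, dotted lines mark an absolute log2 fold change of 1, and PYCARD is left out where M4 is compared because its counts there were 0. The filled points are PYCARD in M3 against M1 (-1.06), CASP1 in M4 against M2 (which fell by 2.00) and CASP4 in M4 against M3 (1.08), and the widest errors belong to NLRP3. NLRP3 passed the filter only through M4 and had 1 and 0 counts in M2, so its points are a description and no test is read from them.

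Measured per length, as mean CPM per kb of exon over the 4 lines, CASP1 averaged 17.8, PYCARD 15.2 and CASP4 14.3 CPM per kb. The gasdermins followed, with 4.14 for GSDMD, 2.60 for GSDME and 2.41 for GSDMC. The sensors were lower, with 0.350 for NLRP1, 0.0167 for NLRP3 and 0.00821 for AIM2, and CASP5 was the lowest of the 10, with 0.00516. In M1 PYCARD was the highest of all, with a mean of 28.6 CPM per kb against 24.1 for CASP1, although the spread of CASP1 in M1 (10.3 and 37.9 CPM per kb) covered that of PYCARD. In M4, where PYCARD was at 0, CASP4 led with 18.8 CPM per kb and CASP1 followed with 7.57. Exon length here is the union of all annotated exons, which is long for NLRP1 (20157 bp) and lowers its value accordingly.

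Beyond the members, 44 further genes of the pathway were matched to the table, in 5 groups, and 37 of these were tested. In M2 against M1, 0 of them were called by edgeR, 13 had an unadjusted p under 0.05, and DESeq2 called 3. In M3 against M1, 3 were called higher and 5 lower; in M4 against M1, 7 higher and 6 lower; in M3 against M2, 2 higher and 2 lower; in M4 against M2, 5 higher and 6 lower; and in M4 against M3, 5 higher and 1 lower. These are 0, 21.6, 35.1, 10.8, 29.7 and 16.2% of the 37, to be read beside the shares of all genes given above. Some of these calls follow from the filter on low counts: IL37 and NLRP10 passed it only through M4, and PYDC1 only through M1. Their calls in comparisons with those lines support nothing, and the shares of the 37 include them. The median log2 fold change of the 37 lay between -0.37 (M3 against M2) and 0.14 (M4 against M3), and that of all genes tested between -0.04 and -0.0037.

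Of the 4 cytokine genes, 3 were called higher in M4 against M1 and in M4 against M2, beside 20.7 and 13.9% of all genes. In both, 1 of the 3 was IL37, which passed the filter only through M4. In M3 against M1 2 were called higher, in M3 against M2 1 and in M4 against M3 1. The shares of all genes there were 13.5, 4.15 and 10.3%. None of the 4 was called lower. IL1B, the gene of interleukin-1β, a substrate of caspase-1, had 69 and 35 counts (M1), 55 and 38 (M2), 1088 and 771 (M3) and 10404 and 2624 (M4). M3 lay above both lines grown with EGF, M4 lay above M3, and M1 and M2 overlapped. IL1B rose in M3 against M1 by 4.16 on the log2 scale (SE 0.56, adjusted p = 0.00312) and in M4 against M1 by 6.63 (SE 0.61, adjusted p = 0.000473), and with the exchanged assignment by 4.04 (adjusted p = 0.0224) and 6.51 (adjusted p = 0.00270). It also rose in M4 against M3, by 2.47 (SE 0.49, adjusted p = 0.0173), but there the adjusted p was 0.0588 without M3 replicate 1, 0.0813 without M3 replicate 2 and 0.0883 without M4 replicate 1. The line with the most IL1B RNA was the line with no PYCARD count.

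The summed level of the 10 leukocyte markers was highest in M4, as IL1B was, although its members did not move together. It was 25.4 to 50.2 CPM in M1, 15.9 to 16.5 CPM in M2, 13.4 to 42.5 CPM in M3 and 66.0 to 74.4 CPM in M4. Only CD14, CD68, ITGAM and CSF1R of that list reached 100 counts in a library, and PTPRC, CD3E, SPI1 and TYROBP stayed under 10 counts, M4 included. CD68 went from 9.55 and 4.03 CPM in M1 to 51.4 and 39.0 CPM in M4 and CSF1R was likewise higher in both M4 libraries than in any other, while CD14 went from 24.6 and 14.3 to 2.03 and 1.06 CPM and ITGAM from 4.22 and 4.84 to 0.934 and 1.36 CPM. The part of these markers in the IL1B result was not tested.

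IL1A, the gene of interleukin-1α, which does not need caspase-1 for its activity, had 214 and 31 counts (M1), 463 and 370 (M2), 2680 and 3125 (M3) and 10734 and 4579 (M4). It rose in M3 against M1 by 4.55 (SE 0.75, adjusted p = 0.00711), in M4 against M1 by 5.69 (SE 0.78, adjusted p = 0.00237) and in M4 against M2 by 3.97 (SE 0.71, adjusted p = 0.00935). With the exchanged assignment the M3 against M1 value was 3.29 and was not called (adjusted p = 0.147), and the M4 against M2 call was lost without M2 replicate 1 (0.115) or M2 replicate 2 (0.105). IL37, an anti-inflammatory member of the interleukin-1 family, had at most 13 counts in M1, M2 and M3 and 114 and 17 in M4. IL37 passed the filter on low counts only through M4, the line in which it was high, so its levels are a description, and its 2 calls in the counts above (M4 against M1 and M4 against M2) support nothing.

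IL18, the other cytokine substrate of caspase-1, behaved differently from IL1B. It measured 132 and 75.1 CPM in M1, 49.2 and 49.5 CPM in M2, 161 and 68.6 CPM in M3, and 135 and 95.8 CPM in M4. The M2 libraries were the lowest, and M1, M3 and M4 overlapped. edgeR called no comparison, and DESeq2 called M4 against M2 (adjusted p = 0.0100) and M3 against M2 (adjusted p = 0.0257). The edgeR log2 fold change was 1.23 (SE 0.42, adjusted p = 0.0745) in M4 against M2 and 0.16 (SE 0.41, adjusted p = 0.801) in M4 against M1.

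**Figure D4:**
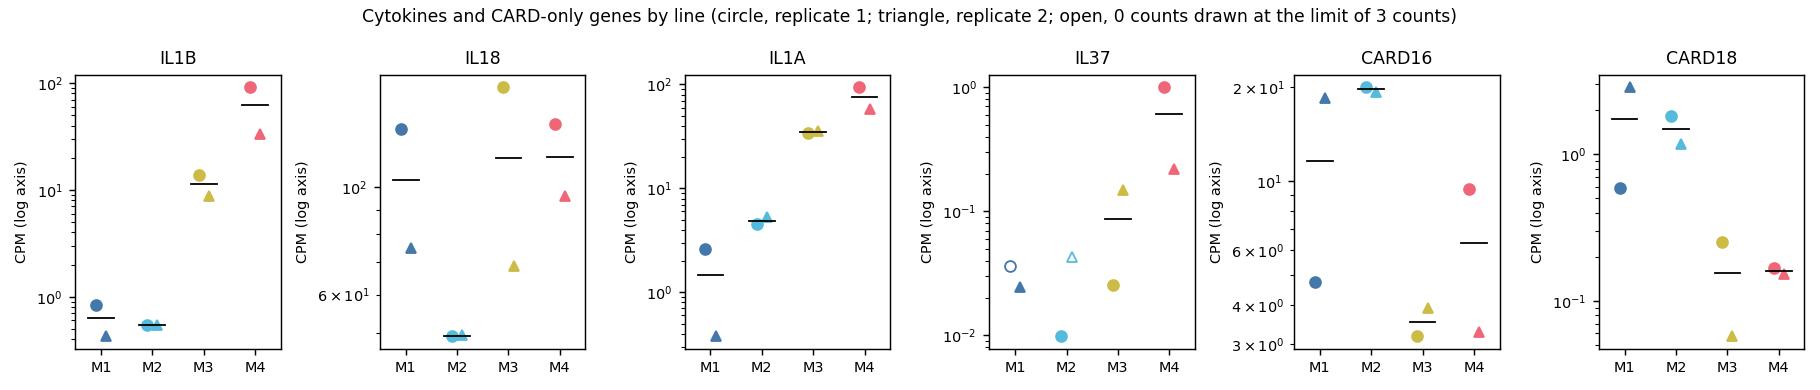
CPM (log axis, a separate range in each panel) of the cytokine genes IL1B, IL18, IL1A and IL37 and of the CARD-only genes CARD16 and CARD18 in the 2 replicates of each line; the bar is the mean, and open symbols mark 0 counts, drawn at the limit of 3 counts. IL1B runs from 0.427 to 0.834 CPM in M1 and from 33.6 to 91.7 CPM in M4, whereas IL18 stays between 49.2 and 161 CPM in all libraries.

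Among the other sensors, 6 of 10 were tested. CARD8, a sensor related to NLRP1 that reaches caspase-1 without ASC, had 9.16 to 12.2 CPM in all M1, M2 and M3 libraries and 4.18 CPM in each M4 library. It fell by 1.48 in M4 against M1 (SE 0.19, adjusted p = 0.00151), by 1.38 in M4 against M2 (SE 0.19, adjusted p = 0.00309) and by 1.18 in M4 against M3 (SE 0.19, adjusted p = 0.00854), and the M4 libraries did not overlap with any other. These calls were kept with the exchanged assignment (adjusted p = 0.0158, 0.0129 and 0.0395), while the last was lost without M4 replicate 1 (0.0554). IFI16, a sensor of nuclear DNA, measured 204 and 200 CPM in M2 against 83.7 and 50.1 CPM in M4. It fell by 1.59 in M4 against M2 (SE 0.26, adjusted p = 0.00606). The call was lost with the exchanged assignment (adjusted p = 0.143), although the log2 fold change stayed between -2.01 and -1.21 across the alternatives. NLRP10 had 0 to 3 counts in M1, M2 and M3 and 105 and 13 in M4. NLRP10 too passed the filter only through M4, and its counts are given as a description with no test.

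Among the regulators, 15 of 18 matched genes were tested. CARD18, a CARD-only gene whose product inhibits caspase-1, had 49 and 236 counts (M1), 185 and 83 (M2), 20 and 5 (M3) and 19 and 12 (M4). It fell in M3 against M1 by 3.48 (SE 0.91, adjusted p = 0.0319), in M4 against M1 by 3.42 (SE 0.90, adjusted p = 0.0240) and in M4 against M2 by 3.21 (SE 0.89, adjusted p = 0.0381), of which the M4 against M2 call alone remained with the exchanged assignment (adjusted p = 0.0408). The first of these was also lost in a fit of M1 and M3 alone (adjusted p = 0.0948). The CARD18 calls were lost without M1 replicate 2 or M3 replicate 2 in the first, without M1 replicate 2 or either M4 library in the second, and without any library in the third (adjusted p from 0.105 to 0.164). CARD17, a close relative, had 33 and 367 counts (M1), 125 and 85 (M2), 1 and 2 (M3) and 48 and 34 (M4), and was called lower in M3 against M1 (adjusted p = 0.00908) and higher in M4 against M3 (adjusted p = 0.0478); the former was lost without M3 replicate 1 (0.0584) or M3 replicate 2 (0.0582) and with the exchanged assignment (0.0581), and the latter without any M3 or M4 library (0.121 to 0.194). GBP2, an interferon-induced GTPase of the family that helps to expose bacterial lipopolysaccharide to caspase-4, measured 31.1 and 110 CPM in M1, 19.8 and 18.4 CPM in M2, 7.10 and 4.47 CPM in M3, and 3.46 and 2.84 CPM in M4. It fell in M4 against M1 by 4.48 (SE 0.60, adjusted p = 0.00216) and in M4 against M2 by 2.60 (SE 0.55, adjusted p = 0.0171), and the 4 lines did not overlap; the M4 against M2 call was lost without any M2 or M4 library (0.0861 to 0.102).

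Among 4 further genes of membrane pores and rupture, GSDMA and NINJ1 were called, both in M4 against M1, where 20.7% of all genes were called. GSDMA, a gasdermin of skin, had 17 and 4 counts (M1) and 250 and 33 (M4) (log2 fold change 3.36, SE 1.09, adjusted p = 0.0499), and this call was lost with the exchanged assignment (adjusted p = 0.253) and without M1 replicate 1 (0.0652), M1 replicate 2 (0.187) or M4 replicate 1 (0.331). NINJ1, which breaks the plasma membrane late in lytic death, measured 160 and 346 CPM in M1 and 63.1 and 75.9 CPM in M4; it fell by 1.86 (SE 0.34, adjusted p = 0.00577), and with the exchanged assignment the adjusted p was 0.101. Among 8 other caspases, CASP14, the caspase of cornifying epidermis, fell in M4 against M1 by 5.21 (SE 1.14, adjusted p = 0.0136), from 1597 and 8448 counts to 82 and 205; without M4 replicate 1 the adjusted p was 0.0769. CASP10, an initiator of death-receptor signalling, fell in M4 against M2 by 2.45 (SE 0.61, adjusted p = 0.0262), from 458 and 402 counts to 166 and 30, and its adjusted p was 0.0833 with the exchanged assignment, 0.0925 without M2 replicate 1, 0.127 without M2 replicate 2 and 0.0695 without M4 replicate 2.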

How the data were processed

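Poly A+ RNA of 8 samples, 2 biological replicates each of M1, M2, M3 and M4, had been sequenced as paired-end reads. According to the methods and the submitters' processing notes, the authors trimmed reads with Trimmomatic, aligned them to hg19 with STAR and estimated gene counts with RSEM from the GENCODE v19 annotation; what was deposited is a table of these expected counts, without normalization, of which 12.8% are not whole. Tool versions and the use of strand are not given in the sources used here. The counts were rounded. Gene names, spans and exon lengths came from GENCODE release 44 lifted to GRCh37, and upstream sequences from RefSeq (GRCh38.p14).

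Lines were compared with edgeR 4.0.16 in R 4.3.3 (TMM scaling, filterByExpr, quasi-likelihood F test with robust estimation, all 8 libraries in 1 model of the line), and p-values were adjusted over 18431 genes by Benjamini-Hochberg. A call needed an adjusted p under 0.05 and a log2 fold change beyond 1 in size. Standard errors were derived from the F statistic. The code of the fit was tried on simulated data with the same spread between replicates in every line. In the real libraries that spread differed (coefficient of variation 0.058 in M2 and 0.38 in M1). The trial therefore does not show how reliable the calls are here. Tables and plots used Python 3.11.15 with pandas 2.3.3, numpy 2.4.6 and matplotlib 3.10.9. No adjusted p is given for PYCARD where M4 is compared, and no fold change for a gene with at most 3 counts in each library of a line. Total counts of 69669945 to 107350288 leave genes under 10 counts with a large counting error.

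The members and the gene lists were chosen with earlier results of these data known. Named are all members; up to 4 called genes of each pathway list in order of their largest absolute log2 fold change, plus IL1B and IL18; genes within 100 kb of PYCARD; and the 5 genes most correlated with PYCARD in log2 CPM (prior count 2). CARD16 was named after its values were seen, because it shares sequence with CASP1. TXNIP and PECAM1 were not matched to the table. Results for some further genes are not reported here. Alternatives were RLE size factors, DESeq2 1.42.0, no filter on low counts, a fit of only the 2 lines compared, a replicate block, the library assignment of the study's listing, the study's rule of a change above 2-fold in both replicates (CPM with 0.001 added), and leaving out each library.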

Additional observations from a re-analysis of the deposited data

How the results depend on the processing

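Counts of genes called depended on the setting. In the order M2 against M1, M3 against M1, M4 against M1, M3 against M2, M4 against M2 and M4 against M3, edgeR called 622, 2494, 3821, 765, 2567 and 1897 genes. With the library assignment of the study's listing these were 0, 219, 1559 and 214 in the first 4 and 830 in M4 against M3. The study's 2-fold rule gave 3366, 4920, 6098, 3621, 5503 and 4750. No filter on low counts gave 1788 in M2 against M1, 1880 in M3 against M2 and 2916 in M4 against M3; DESeq2 gave 1278 and 1439 in M2 against M1 and M3 against M2; and a fit of only the 2 lines gave 1659 in M3 against M1. Without 1 library the 6 counts ran from 0 to 876, from 1752 to 2298, from 2425 to 3651, from 83 to 573, from 927 to 1665 and from 598 to 1671.

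Members called in M3 against M1 (1) numbered 4 without the filter, 4 with DESeq2, 2 with the 2-fold rule, and 0 with 2 lines or the listing's assignment. In M4 against M1 (1, PYCARD by its selection) they numbered 3, 2 and 3 without the filter, with DESeq2 and with the 2-fold rule. In M3 against M2 (0) they numbered 2, 2, 3 and, with 2 lines, 1. In M4 against M2 (2) they numbered 4 without the filter and 4 with 2 lines. Without 1 library they ran from 0 to 0, 0 to 3, 1 to 3, 0 to 1, 1 to 1 and 1 to 3. Of the other pathway genes, M2 against M1 (0) gave 6 without the filter, 1 with 2 lines, 3 with DESeq2 and 3 with the 2-fold rule; M3 against M1 (8) gave 13 without the filter and 2 with the listing's assignment; M4 against M1 (13) gave 7 with it; M3 against M2 (4) gave 11, 8, 11 and 12 without the filter, with 2 lines, with DESeq2 and with the 2-fold rule; M4 against M2 (11) gave 17 and M4 against M3 (6) gave 10 without the filter. Without 1 library they ran from 0 to 4, 5 to 11, 8 to 11, 1 to 3, 4 to 6 and 0 to 4.

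Some changes that were not called reversed. With the listing's assignment PYCARD in M2 against M1 became 0.12 and, in M4 against M1, GSDME became -0.0094 and KAT8 0.0074. Without 1 library, the log2 fold change of CASP1 in M2 against M1 ran from -0.32 (without M1 replicate 1) to 1.57, and in M4 against M1 that of CASP4 from -0.013 (without M1 replicate 1) to 0.50, that of GSDMD from -1.06 to 0.31 (without M1 replicate 2) and that of IL18 from -0.20 (without M1 replicate 2; -0.11 without M4 replicate 1) to 0.64. The cause was not tested. RLE size factors moved none of the 67 single-gene results examined into or out of a call. Other pathway genes called in M3 against M1 numbered 9 with RLE size factors and 8 in the main fit.

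Replicates share a number but no stated origin, and deviations of same-numbered libraries correlated at -0.024 to 0.12, above 0.1 in M4 against M3 alone. With the replicate block, members called were 2 in M3 against M1 (GSDME, adjusted p = 0.0429, beside PYCARD) and 1 in M4 against M2 (CASP1, adjusted p = 0.0725, was not called). Other pathway genes called lower in M3 against M1 numbered 3 with the block and 5 without it, with CARD18 at 0.0528 and CASP14 at 0.0628; CARD18 in M4 against M2 was at 0.0534.

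With 2 replicates a line, the spread of M2, whose replicates are nearly alike, and of the other lines enter 1 shared estimate; where a library is left out, its partner is assumed to vary like the other lines. Levels under 10 counts (AIM2, CASP5, NLRP3 outside M4) carry a large counting error at this depth and are given as a description.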
